A study of Rattus rattus with 23 samples.

Results

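The genes described here are the cytochrome P450 genes of families 1 to 4 in rat nasal respiratory epithelium after inhalation of hydrogen sulfide (H2S). The members were taken by symbol: every probe set with a single gene symbol of Cyp, a number from 1 to 4, a letter and a number. Earlier results of these data were known when this choice was made. The rule found 46 probe sets of 42 genes, of 14217 genes with a symbol on the array. Each gene was represented by its probe set with the highest mean value over the 23 arrays. Family 1 had 3 members, family 2 had 25, family 3 had 4 and family 4 had 10.

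Expression was measured on Affymetrix Rat230_2 arrays, 1 array for each of 23 male Sprague-Dawley rats, whose age is given as 10 weeks in the study's design and as 60 days in the labels. Rats breathed air or 200 ppm H2S through the nose only, and epithelium was laser captured where the gas injures it. A single exposure lasted 3 h. Of the animals given H2S once, 4 were sampled 3 h after its start, 3 at 6 h and 4 at 24 h, beside 4 air animals at 24 h. A further 4 animals given H2S and 4 given air, for 3 h on each of 5 days, were sampled at 144 h. The exposed groups of 3 h and 6 h had no air group of their own time and were set against air at 24 h, so they differ from it in time as well as exposure. The 3 comparisons with air at 24 h share these 4 air animals. Animals 6, 14 and 18 carry a treatment label of 5 days against titles of 3 h or 24 h, and were kept in the groups of their titles.

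Cytochrome P450s are heme enzymes of the endoplasmic reticulum that take electrons from NADPH through P450 reductase and insert an oxygen atom into their substrates. Members of families 1, 2 and 3 act mainly on inhaled and ingested chemicals, drugs and steroids, and can turn a chemical into a more toxic product at the site where they are expressed. Members of the Cyp2j and Cyp4 groups act mainly on fatty acids and the eicosanoids made from them. The nasal mucosa is known for a high content of P450s, in part of forms that the liver hardly uses, and the olfactory part of the mucosa is richer in them than the respiratory part captured here.

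Arrays of 2 air animals stood apart. The median correlation with the other arrays was 0.431 for animal 18 (air, 24 h) and 0.742 for animal 22 (air, 144 h), against 0.858 to 0.917 for the other 21. Both were kept, and values without them are given for part of the P450 members. None are given for the lists of other genes below. Comparisons with air at 24 h there include animal 18, and those with air at 144 h include animal 22. The RNA integrity number ran from 2.6 to 5.1 in air at 24 h, 5.3 to 7.2 at 3 h, 5.8 to 6.4 at 6 h, 2.6 to 10 in H2S at 24 h, 5.1 to 6.9 in air at 144 h and 1.7 to 5.1 in H2S at 144 h, over the 19 animals that had one. These were 3 animals in air at 24 h, 2 at 3 h, 2 at 6 h and 4 in each other group. The ciliated cell marker Foxj1 and the basal cell marker Krt5 lay above the median of their array on all 23 arrays. So did the connective tissue and bone genes Col1a1, Bglap and Ibsp. Omp, the defining marker of olfactory neurons, did so on 3 arrays, while Gap43 and Adcy3 of the same list did so on 23 and 21. The hepatocyte gene Alb did so on 3 arrays, and Serpina1 and Hpx, also of the liver list, on 14 and 11. Levels and changes below are on the scale of log2(signal + 16), which makes changes at low signals look smaller than they are. In bulk samples, fewer cells of a type and less RNA per cell cannot be told apart.

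In air-breathing rats 19 of the 42 P450 genes were expressed, a gene being called expressed where it lay above the median of its own array on at least 5 of the 8 air arrays. By the same rule 64.9% of all genes were expressed. The 19 were 1 of 3 genes of family 1, 12 of 25 of family 2, 1 of 4 of family 3 and 5 of 10 of family 4. On all 8 air arrays, 10 members lay above the median: Cyp2a3, Cyp2d4, Cyp2e1, Cyp2f4, Cyp2j4, Cyp2t1, Cyp2u1, Cyp3a9, Cyp4b1 and Cyp4f6. On 7 of 8 air arrays Cyp2b21, Cyp2j3, Cyp2s1, Cyp4f4 and Cyp4v3 did so, and on 6 of 8 Cyp1b1, Cyp2g1, Cyp2j10 and Cyp4a8. Just outside the rule, Cyp4a3 lay above the median on 4 of 8 air arrays, and Cyp1a2, Cyp2a1 and Cyp4a1 on 2 each.

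The subfamilies differed in how many of their genes met the rule. All 3 genes of the Cyp2j group, which make epoxides of arachidonic acid, were expressed. None of the 7 Cyp2c genes, which are major P450s of rat liver, was expressed. Of the 4 Cyp3a genes, also major liver forms, the single one expressed was Cyp3a9. Neither Cyp1a1 nor Cyp1a2, the standard targets of the aryl hydrocarbon receptor, was expressed, while Cyp1b1, a P450 of estradiol and polycyclic hydrocarbons, was. Of the 5 Cyp4f genes, whose best known reaction is the inactivation of leukotriene B4, Cyp4f4 and Cyp4f6 were expressed. Probe sets of near-identical genes in the Cyp2a, Cyp2b, Cyp2c, Cyp2d, Cyp3a and Cyp4a groups may share transcripts, so the split between members of such a group is uncertain.

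**Figure D1:**
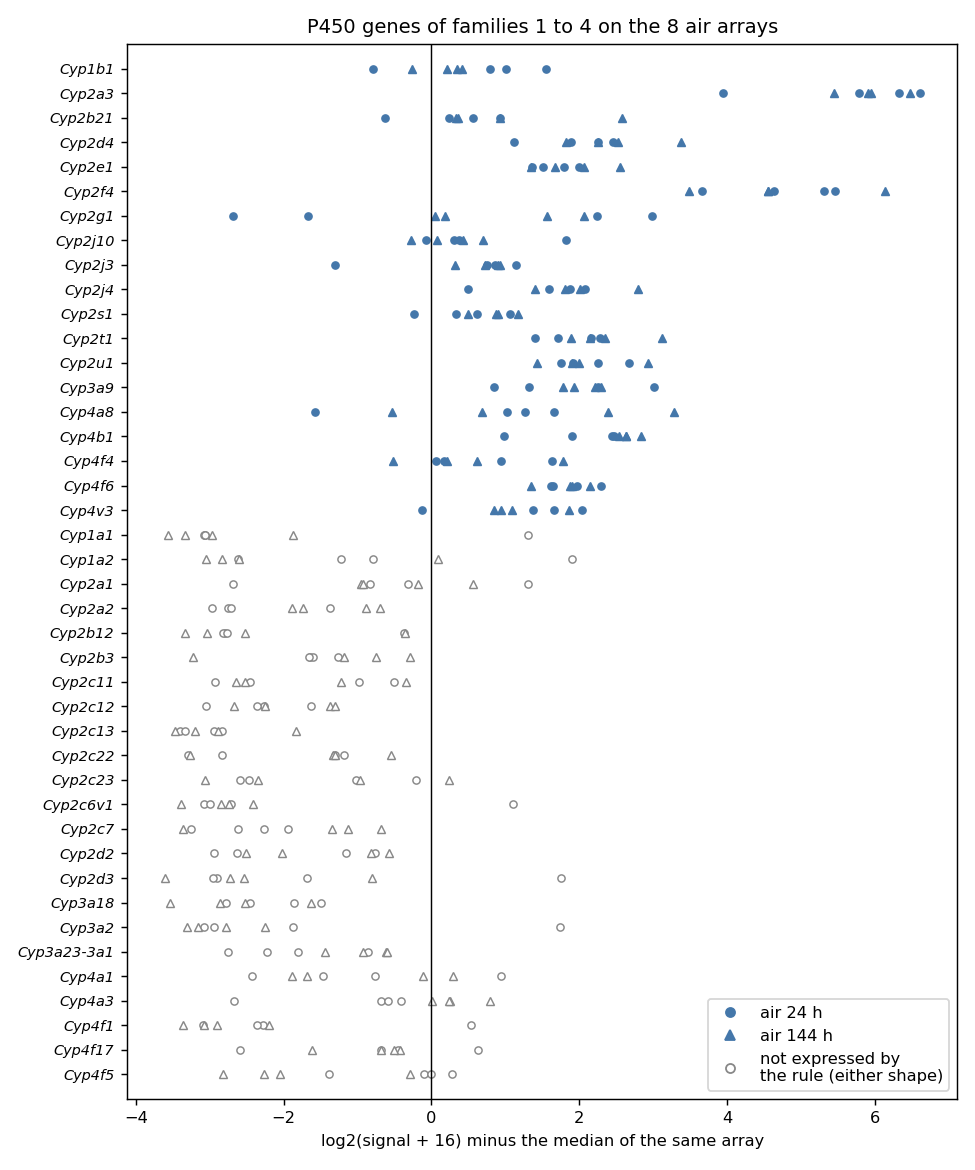
Level of each of the 42 P450 genes on the 8 air arrays, as log2(signal + 16) minus the median of the same array (horizontal axis), with circles for air at 24 h and triangles for air at 144 h. Filled points mark the 19 genes expressed by the rule, and the 23 genes with open points lie mostly to the left of 0. The values show where a probe set stands on its array and do not rank the genes against each other, since probe sets differ in how well they bind.

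The group means of the 23 members not expressed in air ran from 4.58 to 7.40 in air at 24 h, from 4.80 to 8.06 in air at 144 h, from 4.51 to 7.38 at 3 h, from 4.27 to 7.08 at 6 h, from 4.15 to 7.11 in H2S at 24 h and from 4.32 to 6.90 in H2S at 144 h. On none of the 23 arrays did 11 of the 42 members lie above the median. For the tests, 23 members passed a filter that asked for a value above the array's median on at least 3 of 23 arrays. These were the 19 expressed genes together with Cyp1a2, Cyp2a1, Cyp4a3 and Cyp4f5, and the other 19 members were not tested. Cyp4a3 passed solely through the 4 air arrays of 144 h, so any difference in which that group is the higher one rests on the values that let the gene in.

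None of the 23 tested members passed an adjusted p of 0.05 in limma's F test over the 6 groups, which called 0.0605% of the 19822 probe sets tested. The unadjusted p was under 0.05 for 4 of the 23 members, against 7.76% of all probe sets. These were Cyp2a3 (adjusted p = 0.221), Cyp2t1 (adjusted p = 0.494), Cyp4a3 (adjusted p = 0.549) and Cyp4b1 (adjusted p = 0.639). None of the 8 comparisons between groups called a member either, and the values that follow are therefore measurements with their errors. The median SE of a member's change was 0.497 for 4 animals against 4.

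Cyp2a3 gave the smallest p among the members in the F test. It encodes a nasal P450 that activates tobacco nitrosamines and hydroxylates coumarin. Its values were 13.10, 14.25, 13.72 and 12.43 in air animals 15, 16, 17 and 18 at 24 h, which are signals of 8743, 19409, 13440 and 5512. At 3 h after H2S they were 12.49, 11.24, 12.29 and 12.88 in animals 3, 4, 5 and 6. At 6 h they were 11.44, 11.57 and 11.80 in animals 8, 9 and 10. All 3 animals of 6 h lay below all 4 air animals of 24 h, and their signals, 2754, 3033 and 3540, were close together. At 24 h after H2S the values were 13.65, 12.38, 13.07 and 13.22 in animals 11 to 14, which overlapped those of air. At 144 h they were 13.52, 13.93, 13.25 and 14.05 in air animals 19 to 22 and 14.12, 13.62, 12.85 and 13.18 in H2S animals 23 to 26, also overlapping.

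Cyp2a3 thus averaged 13.37 ± 0.783 (SD, n = 4) in air at 24 h, 12.22 ± 0.698 (n = 4) at 3 h, 11.60 ± 0.182 (n = 3) at 6 h and 13.08 ± 0.528 (n = 4) in H2S at 24 h. At 6 h it was lower than in air by 3.41-fold (change -1.77, SE 0.447, adjusted p = 0.781). At 3 h it was lower by 2.22-fold (change -1.15, SE 0.414, adjusted p = 0.399). From 6 h to 24 h among exposed animals it was higher by 2.78-fold (change 1.48, SE 0.447, adjusted p = 0.873), again with no overlap between animals. At 24 h and 144 h the differences from air were -0.30 and -0.24. Animal 18 had the lowest value of the air group at 24 h. Without animals 18 and 22 the changes were -1.46 at 3 h (adjusted p = 0.234) and -2.08 at 6 h (adjusted p = 0.504). With array weights, which count arrays that fit poorly for less, the change at 6 h was called (-2.08, adjusted p = 0.0173). That setting called 68 of all 19822 probe sets at 6 h, against 1 in the main fit. With the integrity number added to the fit, on 19 arrays, it was -2.17 at 6 h and -1.94 at 3 h. That fit has 2 animals at each of these times and 3 in air at 24 h.

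**Figure D2:**
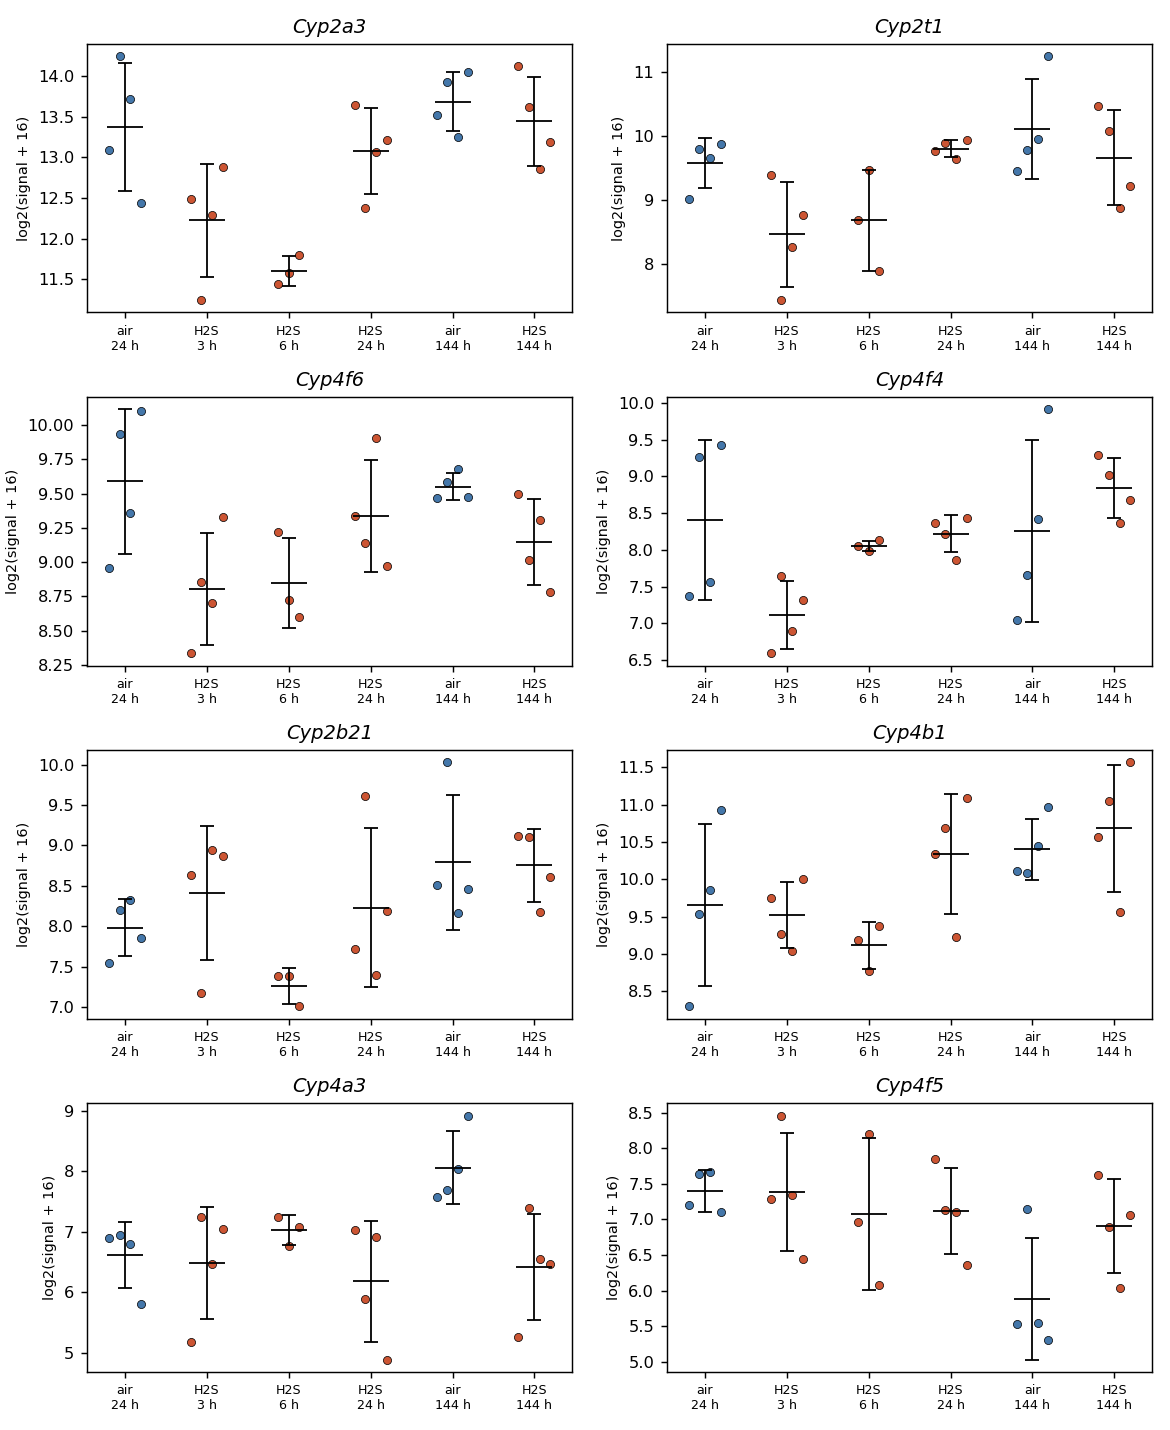
Values of 8 P450 genes as log2(signal + 16) (vertical axes, each with its own range) in the 6 groups, with 1 point per animal, blue for air and red for H2S, and bars for the group mean ± SD. The 3 Cyp2a3 values of 6 h, 11.44 to 11.80, lie below every other Cyp2a3 value shown except the 11.24 of animal 4 at 3 h. The 4 Cyp4a3 values of air at 144 h, 7.58 to 8.92, lie above all other Cyp4a3 values shown. Cyp4a3 passed the filter solely through these 4 arrays, which favours this separation.

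At 3 h no member was called (0.0807% of all probe sets were), and 4 of 23 members had an unadjusted p under 0.05 (9.8% of all), each with a lower mean than air at 24 h. Besides Cyp2a3 these were Cyp4f4, Cyp4f6 and Cyp2t1. Over the 23 members the median change was -0.14, and over all tested probe sets it was 0.09. The median of all probe sets was 0.27 when each array was centred on its median instead, and the members' median was then 0.04. Centring moves members and other probe sets alike. The members' median less that of all probe sets was -0.22, and -0.23 with quantile normalization.

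Cyp4f4 had 7.37, 9.27, 7.57 and 9.43 in air animals 15 to 18 and 6.59, 7.65, 6.90 and 7.32 in animals 3 to 6 at 3 h. The air values fell into a low and a high pair, and 3 of the 4 animals of 3 h lay below all of them. The change at 3 h was -1.29 (SE 0.511, adjusted p = 0.441). At 6 h the values were 8.05, 7.99 and 8.13, all above those of 3 h (change from 3 h to 6 h 0.94, SE 0.552, adjusted p = 1.00). Without animals 18 and 22 the change at 3 h was -0.95 (adjusted p = 0.451).

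Cyp4f6, like Cyp4f4 a hydroxylase of leukotriene B4, had 8.96, 9.94, 9.36 and 10.10 in air at 24 h. At 3 h after H2S it had 8.33, 8.86, 8.70 and 9.33, and at 6 h it had 9.22, 8.72 and 8.60. At each time all but 1 animal lay below every air animal. The changes were -0.78 at 3 h (SE 0.317, adjusted p = 0.453) and -0.74 at 6 h (SE 0.342, adjusted p = 0.781). Without animals 18 and 22 they were -0.61 (adjusted p = 0.519) and -0.57 (adjusted p = 0.999). Cyp4f6 was also the member with the smallest spread within groups (SD 0.374).

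Cyp2t1 had 9.02, 9.80, 9.67 and 9.88 in air at 24 h. At 3 h it had 9.39, 7.44, 8.28 and 8.76, and at 6 h it had 8.69, 9.47 and 7.89. At 24 h after H2S it had 9.76, 9.90, 9.64 and 9.94, within a range as narrow as any of its groups and above all 3 animals of 6 h. The changes were -1.12 at 3 h (SE 0.460, adjusted p = 0.453), -0.90 at 6 h (SE 0.497, adjusted p = 0.781) and 1.12 from 6 h to 24 h (SE 0.497, adjusted p = 1.00). With the integrity number added to the fit they were larger, -1.63 at 3 h and 1.58 from 6 h to 24 h. That fit has 2 animals at 3 h, 2 at 6 h and 3 in air at 24 h. The part of the animals left out in these larger changes was not tested.

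At 6 h no member was called (0.00504% of all probe sets were), and 2 of 23 had an unadjusted p under 0.05, Cyp2a3 and Cyp4f6 (5.81% of all). The median change over the 23 members was -0.35, and over all tested probe sets it was 0.08. With median centring these were -0.10 and 0.34. The members' median less that of all probe sets was -0.43, and -0.44 with quantile normalization, and 18 of 23 members lay below the median of all probe sets (17 with quantile normalization). Cyp2a3 and Cyp2b21 were the 2 members with every animal below every air animal, as were 2.02% of all probe sets. Cyp2b21, of the subfamily known for barbiturate-induced forms in liver, had 7.55, 8.20, 8.32 and 7.85 in air at 24 h and 7.39, 7.39 and 7.01 at 6 h. In the other exposed groups within 24 h it had 8.63, 7.18, 8.94 and 8.87 at 3 h, where animal 4 overlapped those of 6 h, and 7.72, 9.61, 7.40 and 8.19 at 24 h. Its changes were -0.72 at 6 h against air (SE 0.518, adjusted p = 0.781), -1.14 from 3 h to 6 h (adjusted p = 1) and 0.97 from 6 h to 24 h (adjusted p = 1.00).

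Between the exposed groups of 3 h and 6 h no member was called (0.00504% of all probe sets were), and Cyp2b21 was the single member with an unadjusted p under 0.05 (4.21% of all). Cyp4f4 was the single member with every animal of 6 h above every animal of 3 h (3.16% of all probe sets). The next smallest p was that of Cyp2s1, a P450 of epithelia outside the liver, with a change of -0.88 (SE 0.472, adjusted p = 1.00).

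From 6 h to 24 h after H2S no member was called (0.0101% of all probe sets were), and 3 of 23 members had an unadjusted p under 0.05, all with higher means at 24 h (3.06% of all in either direction). They were Cyp2a3, Cyp2t1 and Cyp4b1. Of the 23 members 18 had a higher mean at 24 h, and the median change was 0.34 against -0.01 over all tested probe sets. In Cyp2a3, Cyp2b21 and Cyp2t1 every animal of 24 h lay above every animal of 6 h, as in 3.4% of all probe sets. Cyp4b1, which turns 4-ipomeanol and other furans into reactive products, had 9.19, 8.77 and 9.38 at 6 h and 10.33, 10.69, 9.23 and 11.09 at 24 h. The values of Cyp4b1 in air at 24 h, 8.30, 9.54, 9.86 and 10.92, covered nearly the range of both groups. Its change from 6 h to 24 h was 1.22 (SE 0.537, adjusted p = 1.00).

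Genes of the Cyp2a, Cyp2b, Cyp2f, Cyp2g, Cyp2s and Cyp2t groups lie together in a single gene cluster of rodent genomes, and 6 of its 10 members here were expressed. They were grouped in this way after their values had been seen, so the counts are a description. Expressed members were also picked by high values on the air arrays, which can favour lower values after H2S than in air. With the 60th percentile in that rule Cyp2b21, Cyp2g1 and Cyp2s1 were not expressed. At 6 h all 6 had a lower mean than air (Cyp2a3, Cyp2b21, Cyp2f4, Cyp2g1, Cyp2s1 and Cyp2t1), with a median of -0.65, while 7 of the 13 other expressed members were lower, with a median of -0.17. From 6 h to 24 h all 6 had a higher mean, with a median of 1.04, and 9 of the 13 others, with a median of 0.16. Both comparisons use the same 3 arrays of 6 h. At 6 h the mean of Cyp2g1 lay almost level with air (-0.04), and it was above air with median centring (0.22), with a pseudocount of 1 (0.31), with array weights (0.02) and without animals 18 and 22 (1.14), which left 5 of 6 lower. The same held without animal 8, 10, 17 or 18 alone and without animals 6, 14 and 18. Cyp2f4 was above air by 0.06 with the integrity number in the fit and by 0.04 without animal 9. It was also above air on the 19 arrays that have an integrity number, without that number in the fit. Leaving out any 1 of the 3 animals of 6 h thus left 5 of 6 lower. From 6 h to 24 h Cyp2s1 differed by -0.04 without animal 10. At 3 h against air 3 of the 6 were lower (median -0.19), but 5 of 6 with the integrity number in the fit (median -1.24) and 6 of 6 on the 19 arrays that have one (median -0.92). At 24 h 2 of 6 were lower, and 5 of 6 with the integrity number in the fit. The 2 were Cyp2a3 and Cyp2s1, but Cyp2a3 and Cyp2f4 without animals 18 and 22. At 144 h 5 of 6 were lower than air (median -0.32), but 3 of 6 with median centring or array weights and 2 of 6 with the integrity number in the fit.

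Marker levels also differed between these groups. A marker level is the mean log2 value of the list's genes minus the mean of all genes on the array. The ciliated level (7 genes measured, all above the median on most arrays) averaged 1.76 (1.29 to 1.97) in air at 24 h, 2.54 (1.93 to 3.15) at 3 h, 1.23 (0.39 to 1.76) at 6 h and 2.25 (1.14 to 2.92) in H2S at 24 h. The secretory level (8 genes, 5 above the median on most arrays) averaged -0.22 (-0.82 to 0.57), -0.42 (-0.72 to 0.06), -0.82 (-1.06 to -0.51) and 0.15 (-0.33 to 0.38) in the same order, with no overlap between the last 2 groups. Its defining marker Scgb1a1 lay above the median on 1 of 23 arrays. The level of Bowman gland and sustentacular markers (6 genes, 2 above the median on most arrays) averaged 1.29 (0.46 to 2.31), 0.67 (-0.41 to 1.23), 0.92 (0.38 to 1.65) and 1.02 (0.62 to 1.46). The leukocyte level (12 genes, 9 above the median on most arrays) averaged 0.12 (-0.48 to 1.14), 1.05 (0.77 to 1.80), 0.40 (-0.36 to 1.39) and -0.18 (-0.39 to 0.14). The nasal gland and lining level (10 genes, 8 above the median on most arrays) averaged 1.97 (1.74 to 2.11), 2.51 (2.19 to 2.80), 1.70 (1.05 to 2.86) and 2.27 (2.01 to 2.57). The cartilage and bone level (6 genes, 3 above the median on most arrays) averaged 0.71 (0.05 to 1.37), 0.75 (-0.20 to 1.55), 1.19 (1.06 to 1.36) and 0.35 (0.04 to 0.88), with no overlap between the last 2 groups. At 144 h the ciliated level averaged 2.24 (0.80 to 3.74) in air and 3.16 (2.31 to 3.73) after H2S, and the cartilage and bone level 2.06 (0.53 to 3.89) and 0.49 (0.05 to 0.72). The part of these levels in the P450 values was not tested at any time.

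Cyp2f4 and Cyp2e1 handle small inhaled chemicals, Cyp2f4 being known for activating naphthalene and styrene and Cyp2e1 for oxidising ethanol and small solvents. Cyp2f4 had 12.62, 12.27, 12.86 and 12.15 in air at 24 h, 11.87, 11.33, 11.95 and 12.76 at 3 h, 12.08, 10.86 and 12.95 at 6 h, and 12.48, 12.97, 12.32 and 12.33 in H2S at 24 h. These groups overlapped. At 144 h it had 11.06, 12.00, 12.36 and 14.28 in air animals 19 to 22 and 12.76, 13.42, 12.71 and 14.05 in H2S animals 23 to 26. The highest of these 8 values was that of animal 22, and the 3 other air animals lay below all exposed animals. The change at 144 h was 0.81 (SE 0.534, adjusted p = 0.727), and without animals 18 and 22 it was 1.43 (SE 0.452, adjusted p = 0.267). The group means of Cyp2e1 ran from 9.36 to 9.65 except at 144 h after H2S, where it averaged 10.20 ± 0.435. The ciliated and the cartilage and bone levels given above also differed at 144 h. The change of Cyp2e1 at 144 h was 0.56, and 0.90 without animals 18 and 22 (adjusted p = 0.383).

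After 5 daily exposures no member was called, nor was any probe set (0%), and 1 of 23 members had an unadjusted p under 0.05 (7.8% of all). That member was Cyp4a3, a fatty acid omega-hydroxylase and a standard target of the receptor PPAR-alpha. It had 7.58, 7.70, 8.04 and 8.92 in air animals 19 to 22 and 5.25, 7.39, 6.55 and 6.47 in H2S animals 23 to 26. Every exposed animal lay below every air animal, and 3.43% of all probe sets did the same, a share that cannot be read against Cyp4a3 given how it passed the filter. The change was -1.65 (SE 0.523, adjusted p = 0.580), and -1.36 without animals 18 and 22 (adjusted p = 0.312). The members' median change at 144 h was -0.04 and that of all probe sets -0.02, or 0.30 and 0.32 with median centring.

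The air animals of 144 h were also higher in Cyp4a3 than those of 24 h, which had 6.90, 6.95, 6.80 and 5.81. That difference was 1.45 (SE 0.523, adjusted p = 0.552), with no overlap. The same held for 1.24% of all probe sets, and here too the filter had used the high group. Without animals 18 and 22, whose values of 5.81 and 8.92 were the lowest and highest of the air groups, it was 0.89 (adjusted p = 1.00). H2S animals of 144 h, at 6.41 ± 0.879, stood near air at 24 h, 6.62 ± 0.539.

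Cyp4f5, another Cyp4f gene, had the opposite order in air. It had 7.21, 7.64, 7.67 and 7.10 in air at 24 h and 5.53, 7.15, 5.55 and 5.31 in air at 144 h. All but animal 20 of the later air group lay below the earlier one. The difference was -1.52 (SE 0.503, adjusted p = 0.542). In H2S at 144 h it had 7.63, 6.89, 6.04 and 7.06, and the change against air was 1.02 (SE 0.503, adjusted p = 0.650). Between the air groups no member and no probe set was called (0%), and Cyp4a3 and Cyp4f5 were the 2 of 23 members with an unadjusted p under 0.05 (8.37% of all). Cyp2b21 came next, with a difference of 0.81 (adjusted p = 0.656). It had 10.03 in animal 20 and 8.16 to 8.50 in the other air animals of 144 h, and without animal 20 the difference was 0.39.

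When the effect of 5 exposures was tested against that of 1 (H2S minus air at 144 h, less H2S minus air at 24 h), limma called no member and no probe set (0%), and no member had an unadjusted p under 0.05 (4.69% of all). The smallest p were those of Cyp4f5 (difference 1.31, SE 0.712, adjusted p = 0.946), Cyp4a3 (-1.21, adjusted p = 0.946) and Cyp4f4 (0.77, adjusted p = 0.952). In Cyp4f4 the change at 144 h was 0.58 with all arrays and 1.13 without animals 18 and 22 (adjusted p = 0.297).

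At 24 h after a single exposure no member was called (0.0101% of all probe sets were), and none had an unadjusted p under 0.05 (8.09% of all). The median change was -0.04 over the members and 0.07 over all probe sets, or 0.23 and 0.34 with median centring. The smallest p was that of Cyp2j4, of the arachidonic acid epoxidising Cyp2j group. It had 9.19, 9.71, 8.98 and 8.98 in air and 10.40, 10.06, 8.82 and 10.21 after H2S, so that 3 exposed animals lay above all air animals and 1 below. The change was 0.66 (SE 0.341, adjusted p = 0.612). Cyp2u1, an omega-hydroxylase of arachidonic acid, had a change of -0.44 (SE 0.319, adjusted p = 0.669). Cyp4b1 had a change of 0.68 (SE 0.497, adjusted p = 0.669), or 1.10 without animals 18 and 22 (adjusted p = 0.707).

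**Figure D3:**
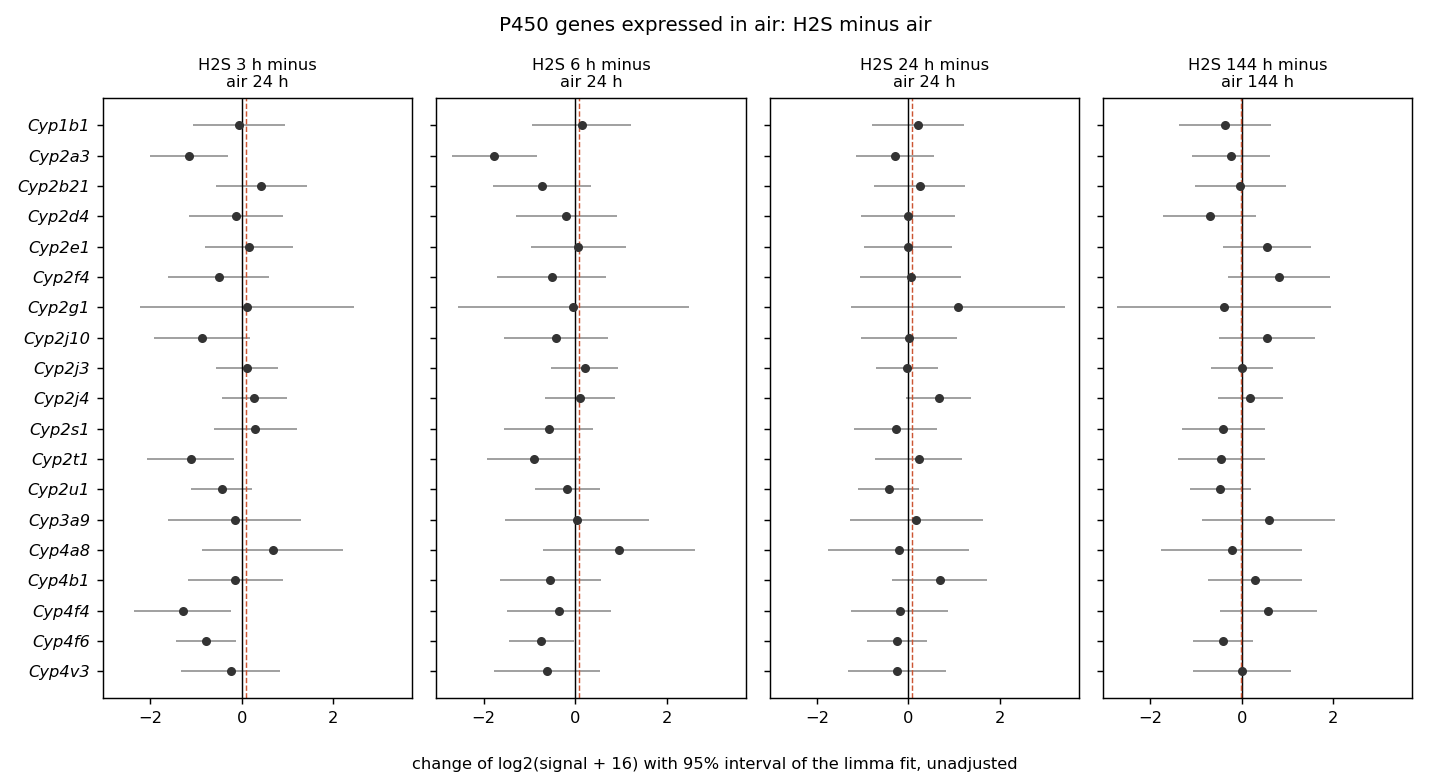
Changes of log2(signal + 16) in the 19 P450 genes expressed in air (horizontal axes), for H2S at 3 h, 6 h and 24 h against air at 24 h and H2S at 144 h against air at 144 h, with unadjusted 95% intervals of the limma fit. The dashed line is the median change of all tested probe sets. The intervals of Cyp2a3, Cyp2t1, Cyp4f4 and Cyp4f6 lie below 0 at 3 h, those of Cyp2a3 and Cyp4f6 at 6 h, and all others include 0.

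Cyp2g1, a P450 known mainly from the olfactory mucosa, varied most between animals of a group among the tested members (SD 1.79), at percentile 99.5 of all tested probe sets. The median of this SD was 0.723 over the members and 0.701 over all probe sets. Cyp2g1 had 4.63, 5.97, 9.63 and 11.47 in air animals 15 to 18 and 9.13, 7.62, 7.85 and 10.20 in air animals 19 to 22. After H2S it had 8.41, 7.63, 9.16 and 6.96 at 3 h, 7.57, 8.31 and 7.78 at 6 h, 8.79, 7.42, 7.56 and 12.26 at 24 h, and 9.12, 8.68, 8.02 and 7.43 at 144 h. The highest values were those of animal 14 (H2S, 24 h) and animal 18. Both animals also had the highest level of Bowman gland and sustentacular markers in their group, 1.46 in animal 14 and 2.31 in animal 18. Animal 15, with the lowest Cyp2g1 value, had the lowest level of these markers in its group, 0.46. At 144 h in air the highest marker level was that of animal 19, 1.68, and not that of animal 22. At 6 h animal 9 was highest in Cyp2g1 and lowest in these markers (0.38), and in H2S at 144 h animal 23 was highest in Cyp2g1 and lowest in the markers (0.54). Animal 18 was also the highest of its group in the olfactory neuron, nasal gland and lining, secretory, basal, cartilage and bone, and liver lists. The part of these cells in the Cyp2g1 values was not tested. Of the Bowman gland and sustentacular list, Ugt2a1 lay above the median on none of the 23 arrays, Bpifb4 on 1, Ermn on 3 and Bpifa5 on 11. The odorant-binding protein genes Obp1f and Obp2b did so on all 23, so most genes of this level had low signals. The change of Cyp2g1 at 24 h was 1.08 (SE 1.13, adjusted p = 0.751), and 2.26 without animals 18 and 22 (adjusted p = 0.739). Without animal 14 alone, or without animal 15 alone, the change was no longer positive.

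**Figure D4:**
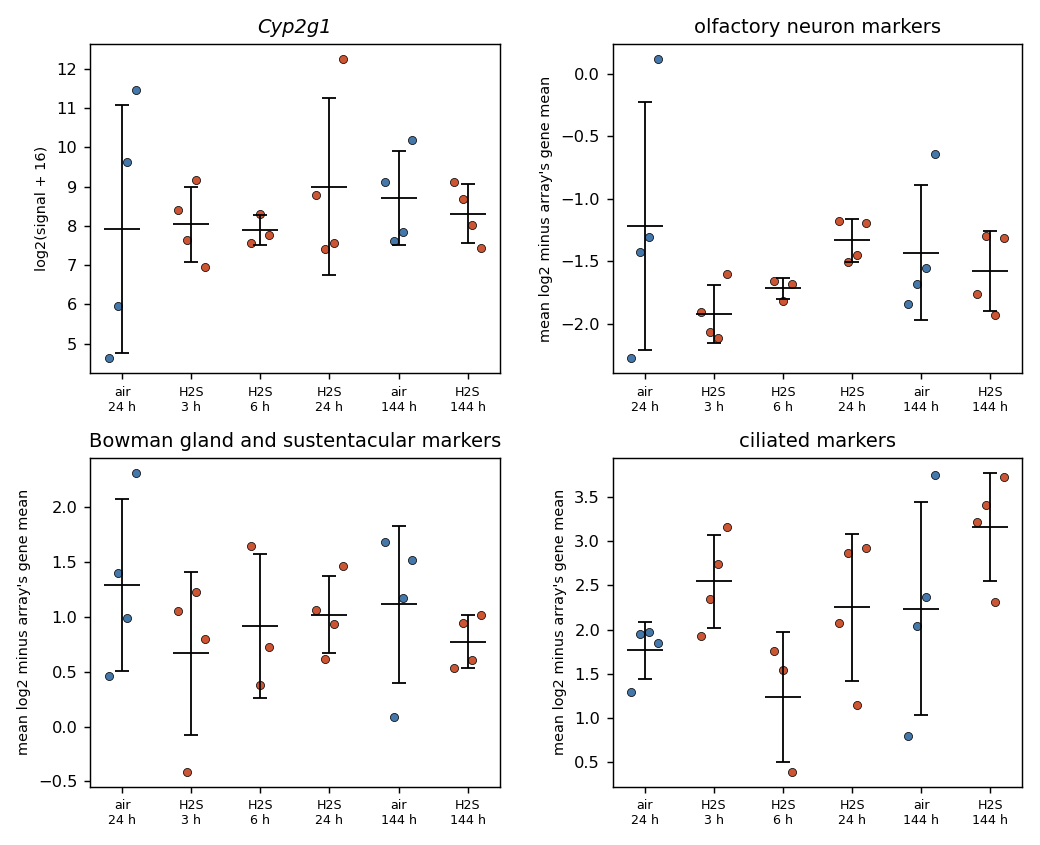
Cyp2g1 as log2(signal + 16), and the levels of olfactory neuron, Bowman gland and sustentacular, and ciliated markers as the mean log2 value minus the array's mean over all genes (vertical axes), in 6 groups with 1 point per animal and bars for the mean ± SD. In air at 24 h the Cyp2g1 values spread from 4.63 to 11.47, and animal 18 is the highest in Cyp2g1 and in the olfactory neuron and Bowman gland panels of that group.

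The other expressed members also passed no test, and their group means follow. Cyp1b1 had group means from 7.55 in H2S at 144 h to 8.56 in H2S at 24 h. Cyp2d4, which the brain also expresses, had group means from 9.44 at 6 h to 10.23 in air at 144 h, and its change at 144 h was -0.71 (adjusted p = 0.742). Cyp3a9 ran from 9.41 at 3 h to 10.38 in H2S at 144 h, with an SD of 2.06 at 6 h, where the animals had 8.47, 8.36 and 11.98. Cyp2s1 averaged 7.57 at 6 h and was higher in every other group.

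Among the fatty acid P450s, Cyp2u1 and Cyp2j3 were the next least variable members after Cyp4f6 (within-group SD 0.379 and 0.394). The group means of Cyp2u1 ran from 9.34 to 9.86 and those of Cyp2j3 from 8.03 to 8.46. Cyp2j3 has 2 probe sets that disagreed. Between air at 144 h and at 24 h the second differed by 1.59 (adjusted p = 0.542) and the representative one by 0.39. Cyp2j10 had 10.30 in animal 18 and 7.24, 7.94 and 7.77 in the other air animals of 24 h. Its change at 3 h was -0.86 (adjusted p = 0.567), and -0.20 without animals 18 and 22. At 144 h its change was 0.55, and 0.84 without them (adjusted p = 0.333). Cyp4a8, of the same group as Cyp4a3, had a within-group SD of 1.15, and its probe sets had changes of opposite sign at 6 h, 0.96 and -1.34, neither of them called. Cyp4v3, the rat counterpart of a human fatty acid hydroxylase gene of corneal and retinal disease, had group means from 8.32 at 6 h to 8.94 in air at 24 h.

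The genes that serve P450s were read from lists of partners, regulators and related enzymes, and none of their members was called in any of the 8 comparisons. Of the 9 tested electron donors and partners, 7 were higher than air at 3 h, 5 at 6 h, 8 at 24 h and 8 at 144 h. Of all probe sets 44.6%, 45.0%, 45.1% and 51.6% were lower than air at these times. With median centring 33.4%, 29.5%, 28.9% and 28.2% were lower, so most probe sets were then higher too. The P450 reductase gene Por, the common electron donor, had changes of -0.11 at 3 h (SE 0.481), -0.20 at 24 h and 0.90 at 144 h (adjusted p = 0.675). The smallest p of this list were those of Cyb5b, an outer mitochondrial cytochrome b5, at 3 h (1.17, adjusted p = 0.507), 6 h (0.87, adjusted p = 0.781) and 24 h (1.85, adjusted p = 0.522), and of Cyb5r4 at 144 h (0.81, adjusted p = 0.603). The Cyb5b values of air at 24 h were spread from 5.98 to 9.52.

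Heme, the cofactor of all P450s, is made and broken down by the next list, of which 12 genes were tested. Higher means than air were found in 9 of 12 at 3 h, 8 at 6 h, 12 at 24 h and 10 at 144 h, while the median of all probe sets at 24 h was 0.07. At 24 h 45.1% of all probe sets were lower than air, or 28.9% with median centring. The counts of 3 h, 6 h and 24 h share the same air animals. Hmox1, the inducible heme oxygenase that degrades heme, averaged 8.33 ± 1.69 in air at 24 h and 11.38 ± 1.08 at 3 h (change 3.06, SE 0.675, adjusted p = 0.0991). Alas1, the rate-limiting enzyme of heme synthesis, had a change of 1.00 at 6 h (adjusted p = 0.781). Its animals of 6 h all lay above every air animal of 24 h, as in 2.49% of all probe sets. The smallest p of the list at 24 h was that of Fech, which inserts the iron (1.55, adjusted p = 0.612), and at 144 h that of Cpox (0.88, adjusted p = 0.693).

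Of 14 measured xenobiotic receptors and partners only 4 passed the filter. Arnt2, a partner of PAS-domain factors, had the smallest p at 3 h (-1.49, adjusted p = 0.397), 6 h (-1.95, adjusted p = 0.781) and 24 h (-1.32, adjusted p = 0.612), with air at 24 h spread from 7.11 to 10.39, and Rxrg had it at 144 h (-1.04, adjusted p = 0.684). Of the 4 tested targets of the aryl hydrocarbon receptor outside the P450s, 3 were higher at 3 h, 4 at 6 h, 3 at 24 h and 3 at 144 h. Nqo1, a quinone reductase that is also a target of the oxidant-responsive factor NRF2, had the smallest p of that list throughout, at 3 h (2.14, adjusted p = 0.165), 6 h (0.95, adjusted p = 0.781), 24 h (1.10, adjusted p = 0.612) and 144 h (1.42, adjusted p = 0.584). The P450s Cyp1a1 and Cyp1a2 of the same receptor were not expressed, as given above.

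Of the 6 tested P450s of families above 4, 3 were higher than air at 3 h, 3 at 6 h, 4 at 24 h and 3 at 144 h. Their smallest p were those of thromboxane synthase Tbxas1 at 3 h (1.14, adjusted p = 0.491), prostacyclin synthase Ptgis at 6 h (-0.94, adjusted p = 0.781) and 24 h (-1.32, adjusted p = 0.592), and the sterol hydroxylase Cyp27a1 at 144 h (-0.81, adjusted p = 0.600). In Cyp27a1 every exposed animal of 144 h lay below every air animal, as in 3.43% of all probe sets. Of the 6 flavin monooxygenases and epoxide hydrolases, 3, 3, 4 and 4 were higher at 3 h, 6 h, 24 h and 144 h. Their smallest p were those of the flavin monooxygenases Fmo5 at 3 h (1.48, adjusted p = 0.498) and 24 h (0.87, adjusted p = 0.684) and Fmo2 at 6 h (0.83, adjusted p = 0.781) and 144 h (1.26, adjusted p = 0.600).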

How the data were processed

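Tissue was laser captured, RNA was extracted by PicoPure spin columns, and it was amplified in 2 rounds before labelling, per the labels' protocols. The deposited values are intensity, the linear signal of each probe set, and the submitters' processing notes name GCOS 1.0. The trimmed mean of each array (2% off each end) was about 500, from which a scaling by the authors was inferred, and no further normalization was applied.

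Analysis used log2 of the signal plus 16. Of 31099 probe sets, 57 controls were left out, and 19822 lay above their array's median on at least 3 arrays and were tested. Symbols were those of the platform table (20832 probe sets with 1 symbol, 436 with several, 9831 with none). Groups were taken from the titles and fitted with limma 3.58.1 in R 4.3.3 (lmFit, eBayes, 1 mean per group over 23 arrays, two-sided), with Benjamini-Hochberg adjustment over all tested probe sets and a threshold of 0.05. The fit was tested on simulated data with independent normal noise, the spread of each probe set capped at the median of the real ones. Noisier probe sets and arrays that stand apart were not covered. Nothing in the labels pairs the animals, and their number limits the precision.

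The members and lists were chosen with earlier results of these data known. Named were all members expressed in air, the 3 members of smallest unadjusted p in each comparison, and for each list the gene of smallest p in the comparisons with air, of 2 that the rule allows (Por was added after its values were seen). Alternatives were other pseudocounts, 2 other scalings (quantile, median centring), filters from none to the 75th percentile, weighting of arrays, the RNA integrity number in the fit, the 19 arrays that have one, fitting only the groups compared, the mean of a gene's probe sets, other expression rules, and leaving out animals 6, 14 and 18, animals 18 and 22, or each animal in turn. Marker levels and the gene cluster were described without a test. Sequences were not used here.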

Additional observations from a re-analysis of the deposited data

Results flagged for a closer look

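Of 105 groups of 4 animals examined in the 21 named P450 genes, 6 held an animal whose distance to its nearest neighbour exceeded the 95% critical value of Dixon's ratio, and chance gives about 1 in 20. In air at 144 h Cyp2d4 was 11.18 in animal 21 and 9.82 to 9.97 in the others. At 3 h after H2S Cyp2d4 was 10.72 in animal 4 and 8.91 to 9.21 in the others. In air at 144 h Cyp2j4 was 10.37 in animal 19 and 9.46 to 9.61 in the others. In the same group Cyp4f5 was 7.15 in animal 20 and 5.31 to 5.55 in the others. In air at 24 h animal 18, whose array stood apart, was low in Cyp4a3 (5.81, against 6.80 to 6.95) and in Cyp4a8 (6.90, against 8.66 to 8.97).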

How the results depend on the processing

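No member was called in any of the 8 comparisons or in the F test under the alternatives run, leaving out each animal in turn included (0 calls in each), except with array weights. These called 1 member at 6 h, Cyp2a3, and 3 in the F test, Cyp2a3, Cyp2t1 and Cyp4f4. They also raised the calls among all 19822 probe sets, from 1 to 68 at 6 h and from 12 to 663 in the F test. Without any single air animal 19 members were expressed in air, but this count was fixed in advance and tests nothing. The cut stayed at 5 arrays, each of the 19 lay above the median on at least 6, and no other member on more than 4. The number of members expressed in air was 10 with the array's 75th percentile in place of the median and 13 with its 60th percentile. The cause of these differences was not tested beyond the construction of the stricter rules. The adjusted p of Cyp2a3 at 6 h ran from 0.0173 to 0.951 over the settings and from 0.318 to 0.949 when 1 animal was left out. Median centring moved the count of members lower than air from 16 to 9 at 3 h, 16 to 13 at 6 h, 14 to 7 at 24 h and 14 to 9 at 144 h of 23, and the share of all probe sets lower from 44.6% to 33.4%, 45.0% to 29.5%, 45.1% to 28.9% and 51.6% to 28.2%. Of the changes of named members recomputed under other settings, 5684 moved by less than their SE, 129 by more, and 1 became a call. Many of the 5684 could not move, so this tally does not measure stability. With 1 mean per group, a change stays identical under another filter or with only the groups compared. It also stays identical when an animal of a group outside the comparison is left out. No detection calls were at hand, so low signals limit what can be said of the members not expressed.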

Other observations

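A further 4 probe sets carry the symbols of 2 P450 genes each and were left out by the choice of members. The probe set shared by Cyp2b1 and Cyp2b2, the barbiturate-induced P450s of rat liver, lay above the median on all 23 arrays, with a mean of 11.16. It had 9.50, 11.11, 11.30 and 10.61 in air at 24 h, 10.70, 10.69, 10.98 and 11.87 at 3 h, 10.94, 11.07 and 11.16 at 6 h, and 11.56, 12.04, 9.84 and 11.89 in H2S at 24 h. At 144 h it had 9.47, 11.38, 10.95 and 12.42 in air and 11.74, 12.17, 10.92 and 12.44 after H2S, and the air and H2S animals overlapped at each time. The probe set shared by Cyp2a1 and Cyp2a2 lay above the median on 3 arrays, and those of Cyp2d1 with Cyp2d5 and of Cyp4a2 with Cyp4a3 on 1 array each.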
